A study of Sus scrofa with 4 samples.

Results

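PPARGC1A, the gene of the transcriptional coactivator PGC-1α, was described in duct cells of the pig pancreas and in organoids grown from pig ducts. It is 1 of the 30282 genes in the count tables. It was chosen from its levels in the same libraries, high in primary duct cells and near 0 in organoids, so those levels are given here as a description and carry no test. They were read in 2318 and 1204 ductal-like cells of the primary libraries and in 8885 and 7337 organoid cells.

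Single cells of German landrace pigs were sequenced with 10x Genomics 3′ chemistry in 4 libraries, where each UMI (unique molecular identifier) marks a captured mRNA molecule. Primary pancreas 1 held cells of hand-picked ducts of a wild-type pig. Primary pancreas 2 came from an INS-eGFP pig, which expresses eGFP from the porcine insulin promoter, and pooled cells that bind the duct lectin DBA, eGFP cells and cells sorted from the whole suspension, where the replicate numbers of the sample titles were taken as the sample numbers of the methods. The features of transgene sequences, eGFP among them, held 10390 UMIs in primary pancreas 2 and 164 in primary pancreas 1, and endocrine-like cells were 51.5% and 1.80% of the cells. PPDO 1 and 2 were porcine pancreatic ductal organoids, cultures started from pig duct cells and grown in a gel. Their medium held WNT3a, R-spondin, noggin, EGF, FGF10, gastrin, prostaglandin E2 and nicotinamide, among other additives. The pigs of both primary libraries were of the same postnatal age and were processed on different days. The organoid lines came from a late postnatal and an adult pig and were of different passage numbers, both at a stage at which, per the study, most cells had passed to a less mature duct state, and which library holds which line was not stated. Human organoid and bulk data of the same series were not analysed here. With 2 libraries a group, the spread between libraries mixes animal, sort, day and line, and origin, culture and library preparation cannot be told apart in the comparison of organoids with primary duct cells.

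PGC-1α does not bind DNA by itself. It docks on nuclear receptors and other transcription factors, among them the oestrogen-related, thyroid hormone and PPAR receptors, HNF4A, NRF1 and GABPA, and through them raises transcription of genes for mitochondrial biogenesis, respiration, fatty acid oxidation and, in liver, gluconeogenesis. Its own transcription is best known to follow cAMP and CREB signalling, as in fasted liver and cold-exposed brown fat. Duct cells of the pancreas secrete a bicarbonate-rich fluid in answer to secretin, whose receptor SCTR acts through cAMP on the chloride channel CFTR.

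In the RefSeq table of the Sscrofa11.1 assembly PPARGC1A lies on chromosome 8 from 17841844 to 18527953, spans 686110 bases and is a protein-coding gene with 7 transcripts. Sscrofa11.1 is also a build named in the submitters' processing notes, but its role there was not stated. The count tables listed the gene (ENSSSCG00000029275) as 2 features, the gene model and an extension of it from the in-house annotation, whose UMIs were summed. Among the PPARGC1A UMIs of duct cells the extension carried 2.72% in primary pancreas 1 and 2.85% in the other library. Nearly all molecules were therefore counted on the gene model itself in both libraries.

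The libraries differed in depth. The PPDO libraries held 366263520 and 316018482 UMIs and the primary libraries 87043513 and 138928395, with medians of 35310, 35127, 8592 and 7402 UMIs per barcode. Pairs of libraries shared 10 to 23 barcodes, at most 0.285% of the smaller library. The counts were not corrected for free RNA, and INS, the insulin gene, stood at 7286 CPM (UMIs of a gene per 1000000 UMIs of the same cells) in the largest ductal-like cluster of primary pancreas 2. Duct cells were named by a list of duct markers, so the levels of those markers describe the label and do not check it. All 7 duct markers that matched a gene passed in the 3 largest ductal-like clusters, while KRT19 and MUC1 had no matching gene name. CFTR stood at 939 and 792 CPM in ductal-like cells of primary pancreas 1 and 2, SCTR at 574 and 962 CPM, and SOX9, a transcription factor of duct cells, at 320 and 351 CPM. In PPDO the label held only in part. The duct keratin KRT7 was at 389 and 384 CPM in PPDO 1 and 2 against 566 and 598 CPM in ductal-like cells. CFTR stood at 1.04 and 0.636 CPM, SCTR at 1.14 and 0.793 CPM and SOX9 at 3.30 and 1.44 CPM in the organoids. PPARGC1A was thus read in organoids in which several defining duct genes were near 0 as well.

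Primary duct cells carried PPARGC1A far above the other classes of the pancreas. In primary pancreas 1 the ductal-like cells held 19525 PPARGC1A UMIs among 44173927 in all, or 442 CPM (95% exact Poisson interval 436 to 448). In primary pancreas 2 they held 16835 among 25400087, or 663 CPM (653 to 673). The level was 552 ± 156 CPM (SD, n = 2), the library with sorted DBA and eGFP cells being the higher, and the intervals, which cover counting error only, did not overlap. Ductal-like cells made up 40.8% of the cells of primary pancreas 1 and held 98.4% of its PPARGC1A UMIs. In primary pancreas 2 they were 28.4% of the cells and held 98.8% of the UMIs. Among all other primary cells the level was 10.0 and 2.22 CPM, which put the ductal-like level 44.1 and 298 times above it. With PPARGC1A and all genes of its network left out of the clustering, the ductal-like level was 557 ± 153 CPM (SD, n = 2).

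The share of cells with a PPARGC1A UMI was compared after every cell was thinned to 3000 UMIs. At that depth 65.1% of ductal-like cells in primary pancreas 1 (exact 95% interval 63.0 to 67.2) and 79.9% in primary pancreas 2 (77.5 to 82.1) held at least 1 PPARGC1A UMI, a mean of 72.5 ± 10.4% (SD, n = 2). In primary pancreas 1, 230 cells below 3000 UMIs were left out, and in primary pancreas 2 none. Without thinning the shares were 87.5% and 98.6%, at median depths of 17355.5 and 20468.5 UMIs. Among endothelial-like cells, the class with the lowest level when both libraries are averaged, the thinned shares were 0.388% and 0.382% and the median depths 9215.5 and 9809 UMIs.

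The other classes were far below. Stellate-like cells held PPARGC1A at 20.9 CPM (17.6 to 24.6, 753 cells) in primary pancreas 1 and at 49.8 CPM (31.6 to 74.7, 52 cells) in primary pancreas 2. Schwann-like cells stood at 18.8 CPM (14.2 to 24.5, 342 cells) in primary pancreas 1, and primary pancreas 2 held 1 such cell. The stellate-like and Schwann-like intervals of primary pancreas 1 overlapped. Acinar-like cells, the enzyme-secreting cells, were at 6.35 and 20.8 CPM in primary pancreas 1 and 2, and endocrine-like cells at 10.4 and 1.30 CPM. Immune-like cells were at 8.97 and 1.30 CPM, and endothelial-like cells at 3.06 and 3.11 CPM. From acinar-like to endothelial-like cells the ranges of neighbouring classes overlapped or the libraries put them in another order, so these 4 classes were not separated beyond the spread between libraries. The range of the ductal-like class lay above that of every other class, and the order of the other classes was not settled. Both stellate-like libraries lay above both acinar-like ones by a margin of under 1 CPM, but without the 6 stellate-like cells of primary pancreas 1 that held 5 or more PPARGC1A UMIs that library stood at 12.4 CPM, below Schwann-like cells (17.2 CPM without the only such cell).

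**Figure D1:**
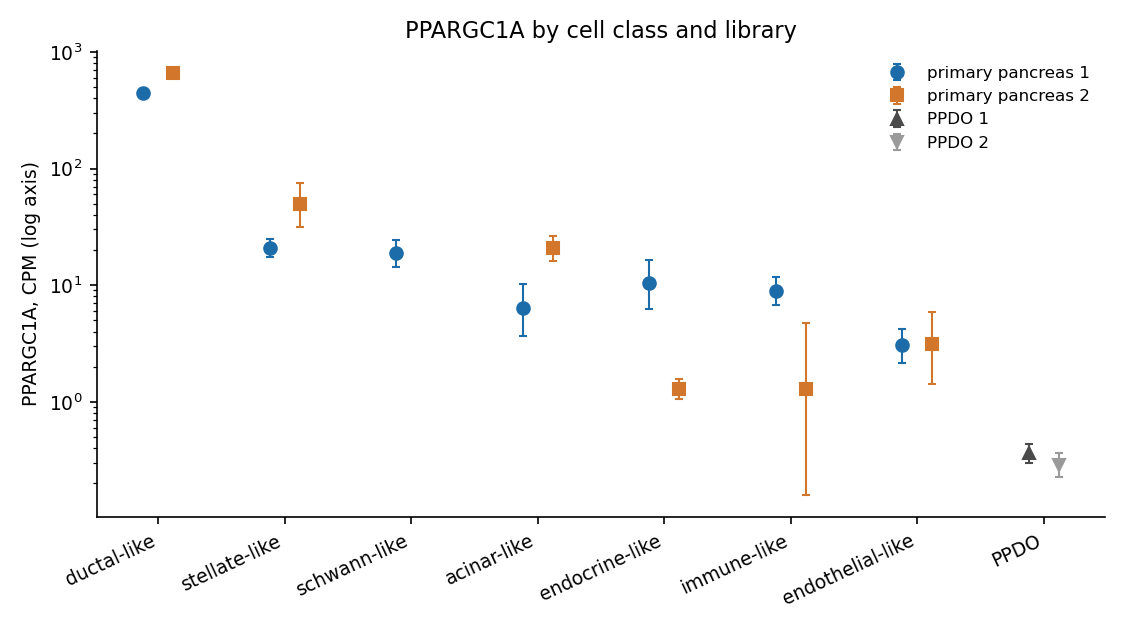
PPARGC1A in CPM (log axis) by cell class, with a point for each library that holds at least 20 cells of the class and exact 95% Poisson intervals, which cover counting error only. The ductal-like points at 442 and 663 CPM stand above every other primary class, of which stellate-like cells reach 49.8 CPM, and the PPDO points at 0.362 and 0.290 CPM stand lowest.

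The acinar-like value of primary pancreas 2 came mainly from a cluster of 340 cells found only there, in which 3 of 11 matched acinar markers passed and PPARGC1A stood at 36.5 CPM. The acinar-like cluster with 10 of 11 markers held 8.49 CPM in primary pancreas 1 and 2.17 CPM in primary pancreas 2. The cells with the fuller acinar profile therefore sat below the class value of their library in primary pancreas 2.

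Signal outside the duct class was set beside duct genes in the same cells. PKHD1, which encodes fibrocystin of the primary cilium, CFTR and SCTR served as a duct readout, PKHD1 having been picked after its values were seen. In endothelial-like cells of primary pancreas 1 PPARGC1A reached 0.693% of its ductal-like level, against 0.409% for PKHD1, 0.353% for CFTR and 0.346% for SCTR. In immune-like cells PPARGC1A stood at 2.03% of the ductal-like level, with 2.43% for PKHD1, 3.03% for CFTR and 2.25% for SCTR. With all cells counted, PPARGC1A was thus above all 3 duct genes in the former class and below them in the latter. In Schwann-like cells it was at 4.26% of its ductal-like level, against 0.387%, 0.401% and 0.119% for PKHD1, CFTR and SCTR. Other genes of duct cells reached more there, with LRP2 at 11.2%, SPP1 at 7.08% and SOX9 at 5.34%. In stellate-like cells of primary pancreas 1 PPARGC1A was at 4.72% against 3.22%, 2.59% and 2.57% for PKHD1, CFTR and SCTR, with SOX9 at 8.19%. In those of primary pancreas 2 it was at 7.52% against 0.254%, 1.09% and 0.225%, a value that rests on 23 PPARGC1A UMIs. In endocrine-like cells of primary pancreas 1 it was at 2.36% against 0.0728%, 0.371% and 0.606%, and in those of primary pancreas 2 at 0.195% against 0.133%, 0.177% and 0.246%. In acinar-like cells of primary pancreas 1 and 2 it was at 1.44% and 3.14%, between the lowest and the highest of the 3 duct genes in both. In primary pancreas 2 it was likewise between them in endothelial-like cells at 0.469%, and in immune-like cells, at 0.196%, it was below all 3. PPARGC1A and the duct genes thus did not keep to 1 ratio across the classes.

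A few cells carried much of the signal outside the duct class. In primary pancreas 1, 6 of 708 immune-like cells held 5 or more PPARGC1A UMIs and 43 of the 52 UMIs of their class. They had a median of 57.5 UMIs of PKHD1, CFTR and SCTR together, against 0 for the class. In the same library 6 of 753 stellate-like cells held 59 of 140 UMIs, with a median of 62.5 UMIs of the same duct genes. There 1 of 1074 endothelial-like cells held 16 of 37 UMIs, and 2 of 258 acinar-like cells held 10 of 16. These cells had medians of 58 and 45 UMIs of the same duct genes. Without such cells the immune-like level was 1.60 CPM and the stellate-like level 12.4 CPM. The endothelial-like level was then 1.74 CPM and the acinar-like level 2.47 CPM. The only Schwann-like cell with 5 PPARGC1A UMIs held 0 UMIs of those duct genes, and of the 40 Schwann-like cells with the transcript 30 held 1 UMI. The part of doublets and free RNA in the levels outside the duct class was not tested further.

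Counts per duct cell were small at the thinned depth only. Without thinning, ductal-like cells with the transcript held a mean of 9.62 UMIs in primary pancreas 1 and 14.2 in primary pancreas 2. By CPM, PPARGC1A ranked 292 among 26406 detected genes in ductal-like cells of primary pancreas 1. In those of primary pancreas 2 it ranked 184 among 25551. At 3000 UMIs a cell, ductal-like cells of primary pancreas 1 held a mean of 1.32 PPARGC1A UMIs with a median of 1 and a maximum of 13. Those of primary pancreas 2 held a mean of 1.95 with a median of 2 and a maximum of 9. No UMI was found in 34.9% and 20.1% of cells, and 5 or more in 3.40% and 7.48%. The mean and median were higher in primary pancreas 2, while the highest cell was in primary pancreas 1.

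**Figure D2:**
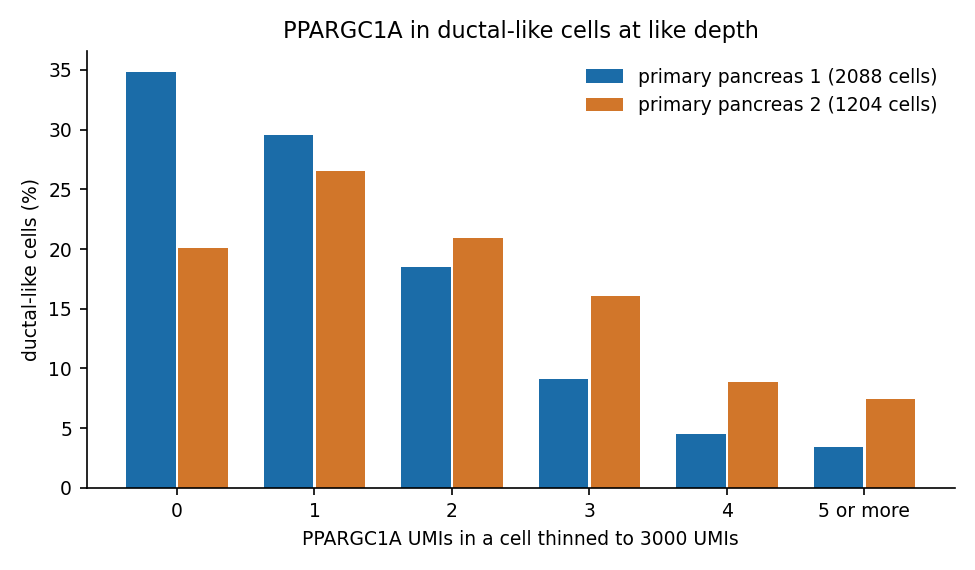
Share of ductal-like cells (percent) by the number of PPARGC1A UMIs in a cell thinned to 3000 UMIs, for primary pancreas 1 (2088 cells) and primary pancreas 2 (1204 cells). Cells with 0 UMIs were 34.9% and 20.1%, and cells with 5 or more were 3.40% and 7.48%.

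The variance of the thinned counts was 1.23 to 1.37 times the mean in 4 of the 5 clusters with over 60 cells after thinning, where 1 is the value of counting alone, and 2.35 times in cluster 7 of primary pancreas 1. For CFTR the same ratio was 1.58 to 2.72 in the former clusters and 3.05 in cluster 7. For SCTR it was 1.94 in cluster 7, 2.31 in cluster 24 and 1.44 to 1.65 in the rest. Mean counts differ between these genes and the ratio moves with the mean, so the ratios do not rank the genes by their spread. The level also did not follow depth above 3000 UMIs. In primary pancreas 1 it was 238 CPM in the 230 cells under 3000 UMIs and 420 to 455 CPM in the 4 deeper bins, and in primary pancreas 2 it was 630 to 682 CPM in all 4 bins.

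Ductal-like cells fell into clusters that differed between the libraries. In primary pancreas 1, 54.4% of them lay in cluster 0 and 0.0431% in cluster 1, whereas in primary pancreas 2 none lay in cluster 0 and 91.4% in cluster 1. PPARGC1A entered the clustering, so the values by cluster are a description. In primary pancreas 1 it stood at 612 CPM in cluster 5 (488 cells, led by DSP, SOX9 and CFTR). In cluster 7 it was at 483 CPM (446 cells) and in cluster 0 at 392 CPM (1260 cells, led by OSGIN1 and EREG). In cluster 22 it was at 146 CPM (123 cells with a median of 1082 UMIs). In primary pancreas 2 it stood at 664 CPM in cluster 1 (1100 cells), at 975 CPM in cluster 24 (64 cells, in which PPARGC1A is itself a leading gene) and at 126 and 182 CPM in clusters 7 and 22 of 20 cells each. Cluster 5 of primary pancreas 1 and cluster 1 of primary pancreas 2 were closer to each other than the libraries as a whole. LGR5, a WNT target, is a leading gene of cluster 7 with both libraries pooled. In cluster 7 LGR5 stood at 21.2 CPM in primary pancreas 1 and at 563 CPM in primary pancreas 2.

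Immediate early genes, which are switched on within minutes of stimulation and also by tissue dissociation, moved with these clusters. The sum of 12 of them, FOS and ATF3 among them, was 10335 CPM in cluster 0, 3202 CPM in cluster 7 and 736 CPM in cluster 5 of primary pancreas 1, and 896 CPM in cluster 1 of primary pancreas 2. Cluster 22 had a sum of 6995 CPM in primary pancreas 1 and 460 CPM in primary pancreas 2, with PPARGC1A low in both. In clusters 7 and 24 of primary pancreas 2 the sum was 2490 and 390 CPM, with PPARGC1A at 126 and 975 CPM. PPARGC1A and the immediate early sum thus ran in opposite order in clusters 0, 7 and 5 of primary pancreas 1. They did so in clusters 7, 1 and 24 of primary pancreas 2 as well, but in neither library with cluster 22 included. The summed cAMP response genes (CREM, the NR4A receptors, SIK1, PER1, PDE4B and PDE4D) stood at 548, 536 and 249 CPM in clusters 0, 7 and 5, and at 208 CPM in cluster 1. Their relation to PPARGC1A was not the same in all clusters. Cluster 7 of primary pancreas 2 had the highest cAMP response sum, 833 CPM, and the lowest PPARGC1A, 126 CPM. Cluster 22 of primary pancreas 1 had the least of both among the ductal-like clusters of its library, with a sum of 180 CPM. Cluster 24 had the most PPARGC1A with a sum of 309 CPM. Without cluster 0 the ductal-like level was 574 CPM in primary pancreas 1 and 663 CPM in primary pancreas 2 (618 ± 63.0, SD, n = 2), and the thinned share was 70.0% and 79.9%. The part of the immediate early response in the difference between the libraries was not tested.

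**Figure D3:**
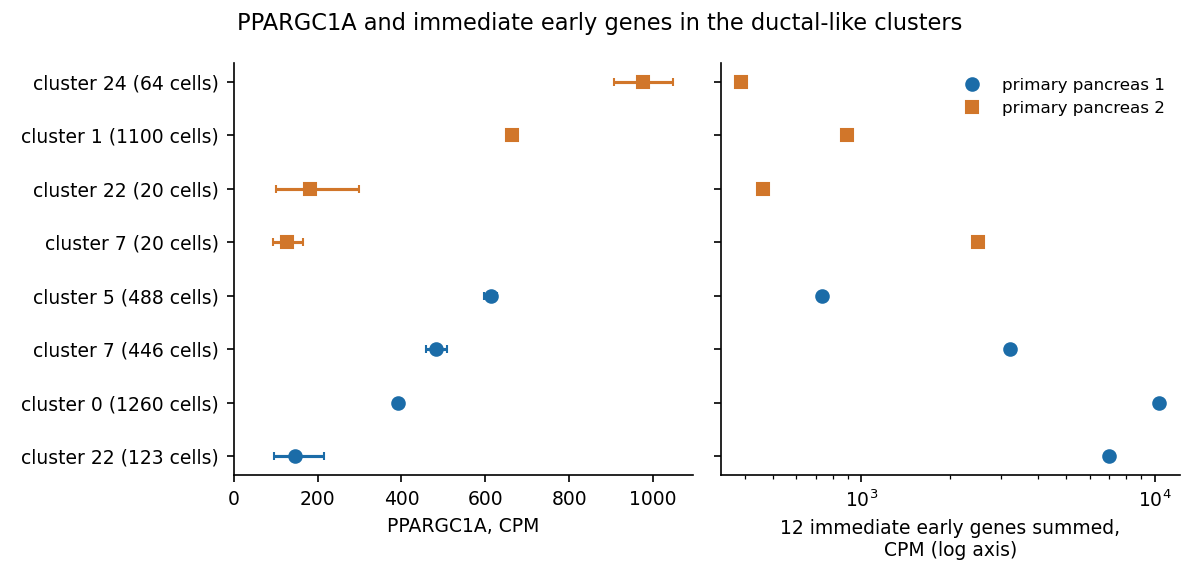
PPARGC1A (left, CPM with exact 95% Poisson intervals, counting error only) and the sum of 12 immediate early genes (right, CPM, log axis) in each ductal-like cluster, by library, with the number of cells. Cluster 0 of primary pancreas 1 has an immediate early sum of 10335 CPM and PPARGC1A at 392 CPM, and cluster 5 of the same library 736 and 612 CPM.

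In organoids PPARGC1A was nearly absent. PPDO 1 held 109 PPARGC1A UMIs, or 0.362 CPM (0.297 to 0.437), and PPDO 2 held 76, or 0.290 CPM (0.228 to 0.363), a mean of 0.326 ± 0.0512 CPM (SD, n = 2). Both libraries lay below every primary class shown, and their intervals overlapped. At least 1 UMI was found in 76 of 8885 and 63 of 7337 cells (0.855% and 0.859%), at median depths of 34176 and 34459 UMIs. After thinning to 3000 UMIs these were 7 of 8824 and 9 of 7327 cells (0.0793% and 0.123%). Of the cells with the transcript, 59 in PPDO 1 and 52 in PPDO 2 held 1 UMI, and with so few molecules fewer cells and less RNA per cell cannot be told apart.

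The few molecules were not spread evenly over the organoid clusters. Cluster 8, led by SPP1, CFD and WFDC2, held 1.41 CPM in PPDO 1 (14 UMIs, 0.773 to 2.37) and 2.36 CPM in PPDO 2 (13 UMIs, 1.25 to 4.03). Cluster 7, whose leading genes include SPINK5 and KLK7 of stratified epithelium, held 1.09 CPM (12 UMIs, 0.562 to 1.90) and 1.37 CPM (20 UMIs, 0.838 to 2.12). These 2 clusters were the highest in both libraries. The other clusters with a UMI were at most 0.615 CPM in PPDO 1 and 0.308 CPM in PPDO 2. Cluster 9, of 36 and 93 cells, held 0 UMIs, which allows up to 6.48 and 1.86 CPM (3 counts). Even cluster 8 lay below the lowest ductal-like value, 126 CPM. In PPDO 1, 3 cells held 18 of the 109 UMIs, with a median of 0 UMIs of PKHD1, CFTR and SCTR, and without them the level was 0.302 CPM.

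Genes with the pattern most like that of PPARGC1A were sought over 15 profiles, 13 of primary classes by library and the 2 PPDO libraries, by Pearson's correlation of log2(CPM + 1). The profiles share libraries and clustering, and the correlations are a description. Of 10361 genes, 19 had an r above 0.9. The 10 highest were LRP2 (r = 0.956), the gene of the endocytic receptor megalin, TMEM200A (0.951), FBN2 (0.937, the microfibril protein fibrillin-2), FTCD (0.932, an enzyme of histidine breakdown), ERBB4 (0.932, a neuregulin receptor), MAN2A2 (0.925, a mannosidase of the Golgi), CLDN10 (0.921, a claudin that forms ion-selective pores), TRIM44 (0.920), SLC28A3 (0.920, a nucleoside transporter) and CCBE1 (0.911). LRP2 stood at 394 and 525 CPM in ductal-like cells of primary pancreas 1 and 2 and at 0.236 and 0.210 CPM in PPDO 1 and 2. ERBB4 stood at 1008 and 998 CPM in ductal-like cells and at 3.04 and 3.17 CPM in PPDO. Within the PGC-1 network the highest correlation was that of ESRRB (0.891, rank 21), which encodes an oestrogen-related receptor.

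Fitted over all genes with edgeR, the log2 fold change of PPARGC1A in PPDO over ductal-like cells was −10.24. It is given with no p or SE because the gene was chosen for this difference. It ranged from −10.93 to −10.08 over the alternatives tried. The rest of the comparison concerns the genes that PGC-1α is known to act with or on. Of 23585 genes tested in edgeR's quasi-likelihood test, 43.5% passed an adjusted p of 0.05, with 22.7% of all genes higher and 20.8% lower in PPDO. Of 160 tested network genes besides PPARGC1A, 81 passed (50.6%), 45 higher and 36 lower, with a median log2 fold change of 0.15 against 0.01 over all genes. The network as a whole was thus near the background in its share of calls and in its direction. The direction of small changes depends on the scaling, since the TMM factors were 0.875 and 0.829 for PPDO and 1.08 and 1.28 for the ductal-like sums. Upper-quartile factors moved the median of all genes by −0.16 and plain library totals by −0.46, and the network calls then split into 34 higher and 41 lower, and into 19 higher and 57 lower. With sums thinned to the smallest the split was 35 and 40, and without PPDO 2 it was 16 and 17. CPM values below are on plain totals and fold changes on the TMM scale. Each SE of a fold change is its absolute value over the square root of edgeR's F statistic, so it restates the test. Calls are out of the 4 sums, 2 against 2, and measure only the spread between these libraries.

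Large differences in both directions were found among the nuclear receptors that PGC-1α binds. Of 21 partner transcription factors tested, 2 were higher and 8 lower in PPDO, with a median log2 fold change of −0.29. The share of calls, 47.6%, was near that of all genes. All 10 called genes are nuclear receptors, while the receptors NR3C1, RXRA and PPARA did not pass (edgeR adjusted p = 0.10, 0.85 and 0.80). THRB, the thyroid hormone receptor β, was at 1.25 and 1.01 CPM in PPDO 1 and 2 and at 531 and 666 CPM in ductal-like cells of primary pancreas 1 and 2. It was lower in PPDO by a wide margin with no overlap (log2 fold change −8.58, SE 0.20, edgeR adjusted p = 2.8e-04). NR1H4, the bile acid receptor FXR, was at 0.0299 and 0.0229 CPM (9 and 6 UMIs) in PPDO and at 9.08 and 5.67 CPM in ductal-like cells. Its log2 fold change was −7.65 (SE 0.54, edgeR adjusted p = 0.0013). Of the other called receptors, NR5A2, HNF4A, THRA, ESRRB and PPARD were chosen for mention after their values were seen. NR5A2 (LRH-1, a receptor of the exocrine pancreas) stood at 11.6 and 2.79 against 645 and 670 CPM, HNF4A at 0.538 and 0.595 against 29.7 and 33.1 CPM, and THRA, the other thyroid hormone receptor, at 17.8 and 17.3 against 71.2 and 82.9 CPM. Each of them was without overlap between the groups, and NR5A2 differed most between the PPDO libraries.

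The 3 oestrogen-related receptors were all lower in PPDO. ESRRG was at 0.362 and 0.339 CPM in PPDO and at 5.39 and 3.86 CPM in ductal-like cells (edgeR log2 fold change −3.28, SE 0.39, adjusted p = 0.0040). ESRRA was at 0.817 and 0.423 CPM in PPDO and at 3.33 and 3.23 CPM in ductal-like cells (edgeR log2 fold change −1.96, SE 0.42, adjusted p = 0.021). The ESRRA call was lost without PPDO 2 (adjusted p = 0.10). ESRRB was at 1.15 and 1.69 CPM against 60.0 and 82.5 CPM (log2 fold change −5.16, SE 0.30, edgeR adjusted p = 8.5e-04). In the opposite direction, PPARG, the receptor of fat cell differentiation, was at 103 and 84.1 CPM in PPDO and at 0.951 and 0.276 CPM in ductal-like cells (edgeR log2 fold change 7.57, SE 0.64, adjusted p = 0.0018), and its fold change was 8.94 without primary pancreas 1 and 6.94 without primary pancreas 2. PPARD was at 66.8 and 85.8 CPM against 28.1 and 37.2 CPM. The 10 called receptors thus stood on both sides, and no library of either group crossed into the other for them. Overlap was also absent for partners that did not pass, such as NRF1, GABPA and NR3C1. Lack of overlap therefore does not set the called genes apart, and its share over all genes was not counted.

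**Figure D4:**
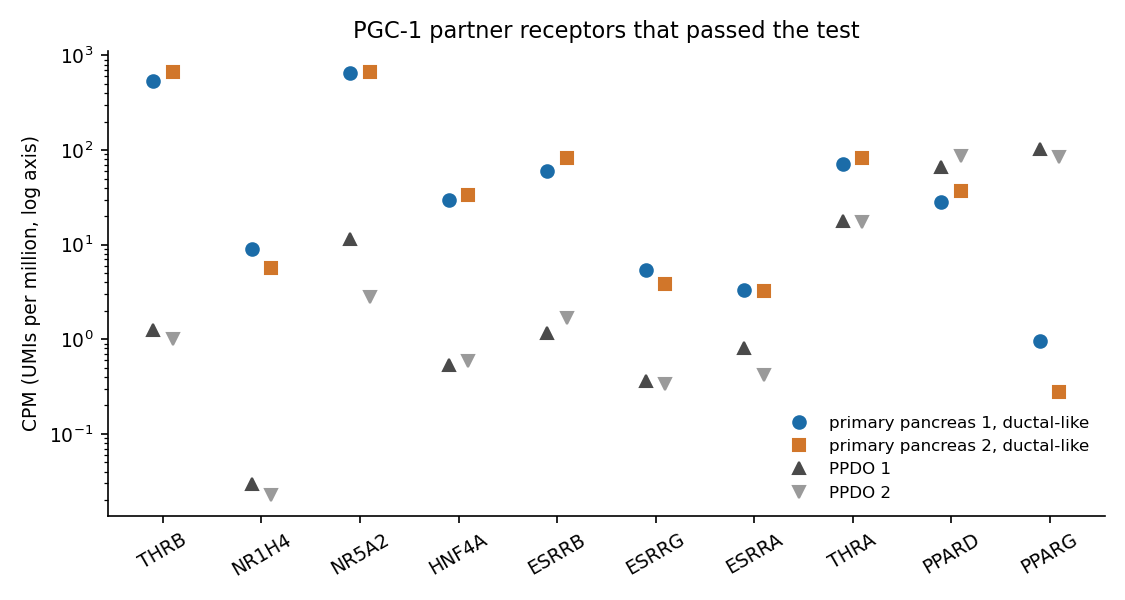
CPM (log axis) of the 10 partner receptors that passed the test, with a point for each of the 4 libraries and no error bars; levels are to be read within a gene. The 8 receptors on the left are lower in both PPDO libraries than in both primary libraries, and PPARD and PPARG are higher.

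NRF1 and GABPA, partners that are not receptors, did not pass. NRF1, a factor for nuclear genes of respiration, was at 91.7 and 93.6 CPM in PPDO and at 118 and 160 CPM in ductal-like cells (edgeR log2 fold change −0.11, SE 0.14, adjusted p = 0.57). GABPA, which shares many of those targets, was at 27.8 and 30.9 CPM and at 31.2 and 45.2 CPM (log2 fold change 0.10, SE 0.18, edgeR adjusted p = 0.68). The GABPA fold change kept its sign in 6 of 12 alternatives. It turned with the scaling and also with PPDO 2, primary pancreas 1 or cluster 0 left out.

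The other members of the PGC-1 family differed from PPARGC1A in direction. PPARGC1B (PGC-1β), the closest relative, was at 4.0 and 3.29 CPM in PPDO 1 and 2 and at 1.29 and 0.669 CPM in ductal-like cells. It was higher in PPDO, with no overlap (log2 fold change 2.29, SE 0.47, edgeR adjusted p = 0.018). PPRC1, the PGC-1-related coactivator of growing cells, was at 11.2 and 11.01 CPM against 6.84 and 6.30 CPM (log2 fold change 1.21, SE 0.21, edgeR adjusted p = 0.012). Neither call held with 1 PPDO library left out, where edgeR's adjusted p was 0.080 and 0.065 for PPARGC1B and 0.072 and 0.079 for PPRC1, without PPDO 1 and PPDO 2. Without primary pancreas 1 the PPARGC1B log2 fold change was 2.98. PERM1 had no matching gene name in the tables.

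Among 16 upstream regulators tested, 2 were higher and 4 lower in PPDO, or 37.5% called against 43.5% of all genes. Fewer regulators were called without PPDO 1 or PPDO 2, with a larger part of the calls lost than over all genes. The list medians were then −0.15 and −0.16. CRTC2, the CREB coactivator that acts on the PPARGC1A promoter in fasted liver, was at 2.56 and 3.13 CPM in PPDO and at 9.42 and 9.41 CPM in ductal-like cells (edgeR log2 fold change −1.26, SE 0.25, adjusted p = 0.017). SIRT1, which deacetylates PGC-1α, was at 19.0 and 14.9 CPM against 61.4 and 44.8 CPM (log2 fold change −1.21, SE 0.28, edgeR adjusted p = 0.026). Both calls were lost with either PPDO library left out, the adjusted p of edgeR being 0.11 and 0.067 for CRTC2 and 0.077 and 0.12 for SIRT1. NRIP1 (RIP140), a corepressor that opposes PGC-1α, was higher in PPDO at 113 and 128 CPM against 59.3 and 55.8 CPM (log2 fold change 1.53, SE 0.18, edgeR adjusted p = 0.0042).

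Of 9 tested genes of mitochondrial DNA expression 3 were higher in PPDO and none lower (33.3% higher, against 22.7% of all genes). On plain library totals 1 was higher and 1 lower, where 3221 of 23585 genes were higher and 6991 lower. Fewer were called without PPDO 1 or PPDO 2, as over all genes, with list medians of 0.67 and 0.39. TFAM, the mitochondrial transcription factor that is the classical PGC-1 target, was at 45.8 and 41.0 CPM in PPDO and at 46.9 and 61.9 CPM in ductal-like cells. Its log2 fold change was 0.15 (SE 0.14, edgeR adjusted p = 0.42), and its sign changed with the scaling. TFB2M, another transcription factor of mitochondria, was higher in PPDO at 13.4 and 10.8 CPM against 4.73 and 4.69 CPM (log2 fold change 1.81, SE 0.22, edgeR adjusted p = 0.0043). LRPPRC, which stabilises mitochondrial mRNA, had a log2 fold change of 1.02 and MTERF1 of 1.01. On plain library totals neither passed, with edgeR adjusted p values of 0.067 and 0.12, and MTERF1 was also lost with PPDO 1 or PPDO 2 left out (0.059 and 0.058).

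Among 11 tested genes of mitochondrial fusion and antioxidant defence, 4 were higher and 6 lower in PPDO (90.9% called, against 43.5% of all genes). CAT, the catalase of peroxisomes, was at 30.5 CPM in both PPDO libraries and at 109 and 115 CPM in ductal-like cells (edgeR log2 fold change −1.41, SE 0.14, adjusted p = 0.0025). GPX1, a glutathione peroxidase, was higher in PPDO at 563 and 440 CPM against 55.8 and 44.0 CPM (log2 fold change 3.77, SE 0.27, edgeR adjusted p = 0.0013). UCP2, a carrier of the inner mitochondrial membrane, was at 5.10 and 5.98 CPM against 1.43 and 2.13 CPM (log2 fold change 2.13, SE 0.29, edgeR adjusted p = 0.0056). Enzymes that remove peroxide thus stood on both sides. Fewer genes of the list were called without PPDO 1 or PPDO 2, with a larger part of the calls lost than over all genes. The list medians were then −0.52 and −0.61.

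Of 20 tested genes of fatty acid oxidation 3 were higher and 8 lower in PPDO and 9 did not pass, with a median log2 fold change of −0.38. Over all genes 20.8% were lower. PDK4, the kinase that holds back pyruvate oxidation and a strong PGC-1α target in muscle and liver, was at 0.412 and 0.309 CPM in PPDO and at 264 and 266 CPM in ductal-like cells. It was lower in PPDO with no overlap between groups (log2 fold change −9.06, SE 0.25, edgeR adjusted p = 3.3e-04). ACAA2, the thiolase of mitochondrial β-oxidation, was at 14.3 and 13.7 CPM against 114 and 126 CPM (log2 fold change −2.63, SE 0.13, edgeR adjusted p = 6.4e-04). CPT1A, which commits long-chain fatty acids to the mitochondrion, was at 13.6 and 8.73 CPM against 106 and 43.9 CPM (log2 fold change −2.34, SE 0.56, edgeR adjusted p = 0.028). The CPT1A log2 fold change was −1.44 without primary pancreas 1, −2.66 without PPDO 1 and −2.09 without PPDO 2. Its call was lost without either PPDO library, where the list lost a larger part of its calls than all genes did. On plain library totals the list held 12 lower calls and no higher one, where 6991 of 23585 genes were lower and 3221 higher.

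In the tricarboxylic acid cycle 1 of 12 tested genes was higher and 3 lower in PPDO (33.3% called, against 43.5% of all genes). The higher call was lost with upper-quartile factors, thinned sums, plain totals and the replicate block. It was also lost with PPDO 1, PPDO 2 or primary pancreas 2 left out. The list median was 0.06 with all libraries, 0.14 without PPDO 1 and −0.08 without PPDO 2. Among the lower genes were IDH2 (62.4 and 65.1 against 226 and 237 CPM, log2 fold change −1.40), the NADP-linked isocitrate dehydrogenase, and DLST (15.5 and 17.2 against 53.4 and 52.8 CPM, −1.24), a subunit of the oxoglutarate dehydrogenase complex. Of 5 tested gluconeogenic genes 1 was higher and 3 lower, where 22.7% and 20.8% of all genes were. PCK1, the cytosolic PEPCK and a PGC-1α target in liver, had 7 and 2 UMIs in PPDO against 557 and 82 UMIs in ductal-like cells, or 12.6 and 3.23 CPM in the latter (log2 fold change −8.53, SE 1.14, edgeR adjusted p = 0.0056). Leaving out a library moved that fold change to between −9.42 (without PPDO 1) and −7.09 (without primary pancreas 1). FBP1 was at 1.12 and 1.51 CPM against 16.5 and 21.5 CPM (log2 fold change −3.37). PC, pyruvate carboxylase, was higher in PPDO at 41.6 and 43.1 CPM against 2.26 and 4.57 CPM (log2 fold change 4.14, SE 0.32, edgeR adjusted p = 0.0015).

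Oxidative phosphorylation did not share the direction of PPARGC1A. Of 64 tested subunits 27 were higher and 4 lower in PPDO, with a median log2 fold change of 0.41, against 22.7% and 20.8% of all genes in those directions. NDUFA7, a subunit of complex I, was at 257 and 264 CPM in PPDO and at 63.9 and 65.8 CPM in ductal-like cells (edgeR log2 fold change 2.47, SE 0.15, adjusted p = 9.0e-04). ATP5MC3, of the ATP synthase ring, was at 317 and 337 CPM against 153 and 173 CPM (log2 fold change 1.47), and NDUFC2 of complex I at 253 and 275 CPM against 129 and 149 CPM (1.40). The 4 lower genes were SDHA and SDHB, catalytic subunits of succinate dehydrogenase, NDUFS1 and UQCRQ, named after their values were seen. The counts depended on the scaling, while the list median stayed above that of all genes. With upper-quartile factors 19 were higher and 5 lower, with a median of 0.25 against −0.15 over all genes. On plain library totals 10 were higher and 12 lower, with a median of −0.06 against −0.45 over all genes. There 3221 of 23585 genes were higher and 6991 lower. The list median was 0.43 without PPDO 1 and 0.36 without PPDO 2, where the list lost a larger part of its calls than all genes did.

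**Figure D5:**
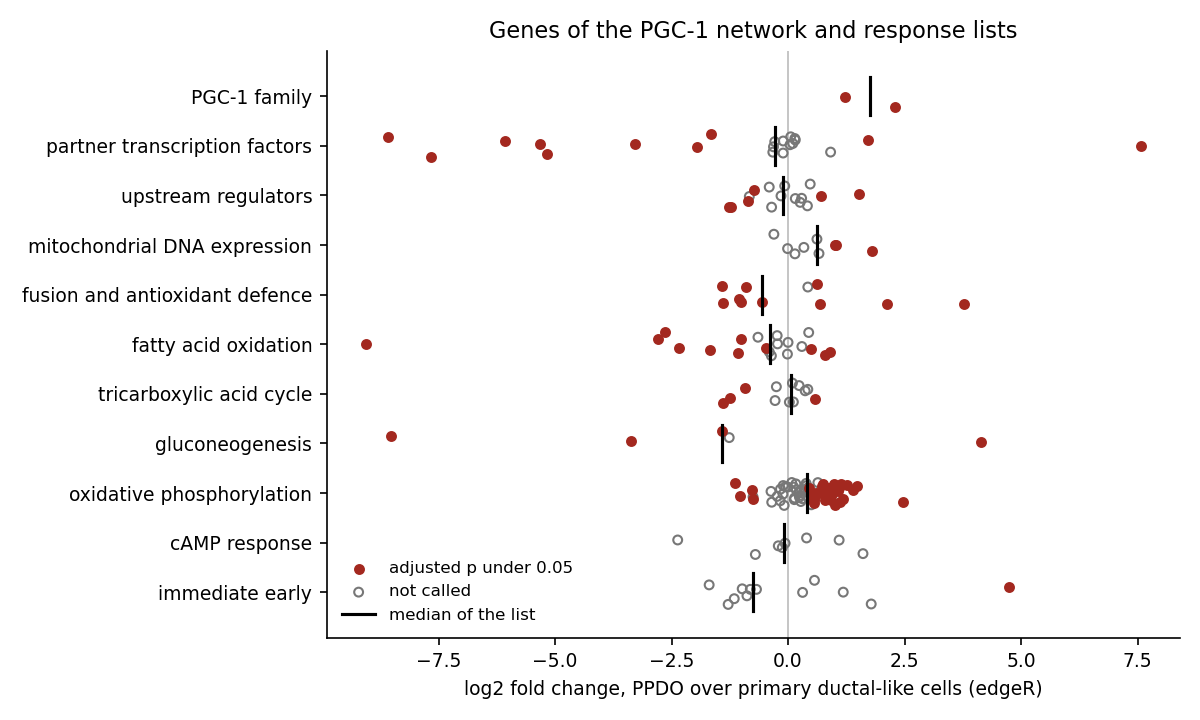
Log2 fold change of PPDO over primary ductal-like cells (edgeR, TMM scale) for each tested gene of the PGC-1 network and of the response lists, with filled points for an adjusted p under 0.05, open points for the rest and a line at each list's median. PPARGC1A is left out. Oxidative phosphorylation, here nuclear genes only, has its median at 0.41 and fatty acid oxidation at −0.38.

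Signals upstream of PPARGC1A were read from response genes. None of 8 cAMP response genes passed edgeR's adjusted p, while 1 had an unadjusted p under 0.05 and 2 passed in DESeq2, where edgeR called 43.5% of all genes. Of 12 immediate early genes tested, MYC alone passed, at 44.1 and 46.7 CPM in PPDO and 3.83 and 0.433 CPM in ductal-like cells (edgeR log2 fold change 4.74, SE 1.03, adjusted p = 0.022), and its call was lost without PPDO 1 (0.053) or PPDO 2 (0.058). The MYC log2 fold change was 7.25 without primary pancreas 1 and 3.89 without primary pancreas 2. These lists turned on the primary libraries. Without primary pancreas 1, 5 cAMP response and 10 immediate early genes were called, all higher in PPDO, where 10293 of 24630 genes were called in all. Without primary pancreas 2, with 10725 of 24708 genes called, 2 cAMP response genes were higher and 4 lower, and 2 immediate early genes were higher and 7 lower. Without ductal-like cluster 0, 3 cAMP response and 7 immediate early genes were higher and none lower, with medians of 1.17 and 1.10 on the log2 scale. In that setting 6165 of 23445 genes were higher and 5210 lower. The direction of both lists thus differed between the primary libraries, in the same way as the clusters with high immediate early genes were divided between them.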

How the data were processed

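Per the labels and the study's methods, the authors prepared 10x Chromium 3′ libraries of live sorted cells, and aligned and counted them with Cell Ranger 7.1.0 against an in-house pig annotation. The submitters' processing notes name the builds GRCh38 and Sscrofa11.1 without their roles. The deposited matrices hold uncorrected UMI counts by feature and barcode, and their barcode and feature tables hold names (unit other). The authors corrected free RNA later, in values not used here. Groups and replicate numbers came from the sample titles.

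Gene models and extensions (25770 of 56060 features) were summed by gene. Cells were kept with under 9000 features and under 8% (primary) or 3% (PPDO) mitochondrial UMIs. At least 1000 features were required in PPDO, 400 in primary pancreas 1, and 800 with over 3000 UMIs in primary pancreas 2. Doublets were removed at Scrublet scores of 0.25 (primary pancreas 1) and 0.15 (primary pancreas 2), in the primary libraries only. This left 8885, 7337, 5679 and 4245 cells (PPDO 1 and 2, primary pancreas 1 and 2).

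Cells were clustered with Scanpy 1.11.5 and leidenalg 0.10.2 on 2000 variable genes, 20 principal components, 15 neighbours and a resolution of 0.5. A cluster was named "like" a class where at least 3 markers passed (in at least 10% of cells and 2 times the level elsewhere), limits set after clusters were seen. CPM are UMIs per 1000000 UMIs of summed counts. Sums per library were tested with edgeR 4.0.16 (quasi-likelihood, TMM, filterByExpr, Benjamini-Hochberg adjustment over all genes), and DESeq2 1.42.0 was an alternative. The test script was tested on simulated data.

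The gene, lists and tests were chosen with earlier results of these data known. The named genes were the PGC-1 family, TFAM, ESRRA, ESRRG, NRF1 and GABPA, the 3 called genes of each list with the largest fold change, no overlap and at least 5 CPM in the higher group, and the 10 genes most like PPARGC1A with at least 20 CPM in their highest profile. A gene that this rule names is not reported here. Alternatives covered scaling, filters, clustering, thinning, a replicate block and leaving out each library.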

Additional observations from a re-analysis of the deposited data

How the results depend on the processing

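The PPARGC1A fold change kept its sign under each alternative run. The split of calls did not: of all genes 5348 were higher and 4904 lower, against 4573 and 5574 with upper-quartile factors, 4399 and 4507 with thinned sums and 3221 and 6991 on plain totals. Leaving out each library in turn gave 4841 to 10725 called genes (10252 with all), 33 to 89 network genes (81 with all) and a PPARGC1A log2 fold change of −10.45 to −10.08. The low ends came without PPDO 1 (5313 genes, 39 of the network) and without PPDO 2 (4841 and 33), where the lone sample is assumed to vary like the other group. The fold change was −10.93 with sums thinned to the smallest and −10.72 on plain library totals, where the cause was not tested. The thinned share of ductal-like cells was 50.8% at 1500 UMIs, 89.3% at 6000 UMIs and 93.1% without thinning, as fewer or more molecules were drawn. The replicate block gave 8261 genes, 64 network genes (32 higher and 32 lower) and a fold change of −10.24. Replicate numbers do not mark shared animals, and the deviations of same-numbered sums had a correlation of −0.0053. DESeq2 called 11068 genes and 86 of the network. All 29 named genes that were called kept their direction in 12 alternatives, but not all calls were kept. Most of these genes were picked for large fold changes and no overlap in the same fit, so this is no separate support. The ductal-like CPM stayed within 442 to 663 and the PPDO CPM within 0.290 to 0.362. Keeping only ductal-like clusters with at least 10% of cells in both libraries left 0 clusters and gave no value. Plain totals, leaving out cluster 0 or 22 and leaving out a library for the levels were chosen after seeing the data. The PPDO level rests on 109 and 76 UMIs.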
